A study of Mus musculus with 6 samples.

Results

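The 6 genes described here are Foxp3, Lrrc32 and the Ikaros family genes Ikzf1, Ikzf2, Ikzf3 and Ikzf4, followed in mouse CD8 T cells that had been activated with medium from basophil cultures. They were chosen by name as a regulatory T cell factor, its partner surface gene and the Ikaros family, with the difference of these same libraries already known. Their difference between the groups is therefore given as a description, with no p-value, and nothing is read from whether these genes passed the test. They are 6 of 46517 genes in the count tables, and all 6 were among the 12407 genes abundant enough to be tested.

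FOXP3 is the forkhead transcription factor that specifies regulatory T cells, and activated conventional T cells can express it at a low level. LRRC32, also called GARP, is a surface protein of regulatory T cells and platelets that holds latent TGF-beta until integrins release the active cytokine. The Ikaros family proteins, Ikaros (Ikzf1), Helios (Ikzf2), Aiolos (Ikzf3) and Eos (Ikzf4), bind DNA through zinc fingers near the amino terminus, pair through zinc fingers at the carboxyl terminus, and recruit chromatin complexes that mostly repress. Eos is a known partner of FOXP3 in gene repression, and Helios marks many regulatory T cells.

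Naive T cells were purified from spleens and lymph nodes of C57BL/6J mice and are labelled as CD8 T cells. They were stimulated for 3 days on plates coated with 5 µg/mL antibody to CD3, with 0.5 µg/mL antibody to CD28 and 100 units/mL IL-2. From day 1 to day 2, cells of 3 libraries received supernatant of basophils kept for 2 days with 3 ng/mL IL-3, and cells of 3 received supernatant of basophils kept with PBS in its place. Basophil cultures of both groups also held 100 units/mL IL-2, so the groups share IL-2, the T cell stimulation and exposure to basophil medium. No group without basophil medium is described here. Any IL-3 carried over in the supernatant and products of the basophils cannot be told apart in this design. The labels do not say whether the libraries of a group came from separate mice or cultures. The p-values below reflect library-to-library scatter alone, and that scatter may be technical.

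Library totals ranged from 17377052 to 22174902 expected counts, so that 3 counts correspond to 0.135 to 0.171 CPM (counts scaled by library total). The defining CD8 genes were abundant, with Cd8a at 367 to 886 CPM and Cd8b1 at 200.2 to 296 CPM, while Cd4 had 0 to 15 counts per library. The 8 T cell markers summed to 2634 to 2798 CPM in the PBS libraries and 1785 to 1951 CPM in the IL-3 libraries. Of these 8, 7 passed the test as lower, as did 16.1% of the 12407 tested genes. Of 7 basophil and mast cell markers, 4 had 0 counts in all 6 libraries and the summed level was 0.153 to 0.991 CPM. PBS replicate 2 stood apart from the other PBS libraries on the second principal component, which held 14.7% of the variance against 63.0% on the first.

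The DNA-binding fingers are shown first, because they are what makes these 4 genes a family and because similar sequences can share reads. The coding bases of 1 isoform per gene (GENCODE vM21, GRCm38) were searched in frame for the C2H2 pattern of 2 cysteine and 2 histidine codons. The search found 6 matches in Ikzf1, 6 in Ikzf2, 5 in Ikzf3 and 5 in Ikzf4. It used a fixed range of spacings and misses fingers spaced otherwise, so these are not counts of all fingers in each protein. The second finger of each is printed 5′ to 3′ on the coding strand, with capitals for the bases that are identical in all 4 genes.
Ikzf1 (chr11:11754024-11754086, exon 6 of 9): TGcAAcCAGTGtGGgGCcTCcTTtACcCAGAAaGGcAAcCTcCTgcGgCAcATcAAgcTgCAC
Ikzf2 (chr1:69570581-69570643, exon 5 of 8): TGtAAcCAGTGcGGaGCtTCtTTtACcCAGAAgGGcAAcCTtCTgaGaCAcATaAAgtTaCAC
Ikzf3 (chr11:98488940-98489002, exon 5 of 8): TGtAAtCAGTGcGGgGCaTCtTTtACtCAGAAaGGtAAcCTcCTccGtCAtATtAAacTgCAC
Ikzf4 (chr10:128640229-128640291, exon 5 of 9): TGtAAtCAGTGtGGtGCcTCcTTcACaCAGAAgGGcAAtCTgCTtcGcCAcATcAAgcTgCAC
Of 63 bases, 43 (68.3%) were identical in all 4 genes. Of the 20 variable positions, 18 were the third base of a codon. Pairs of fingers were 76.2% to 84.1% identical. The longest run of coding bases shared exactly by a pair of these genes was 26, between Ikzf1 and Ikzf3.

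Foxp3 has 2 promoters in the RefSeq table (GRCm38.p6), and its 2 windows are shown because Foxp3 had the widest gap between the groups. GATA3 and STAT5 are known regulators of this locus, and Ikaros family proteins bind GGGAA. These motifs were therefore searched on both strands in the 250 bases before each start, namely GATA, TTCNNNGAA (the STAT half-sites) and GGGAA, 3 in all. Matches are in capitals, and the first window is printed only up to the first annotated exon in it.
Foxp3 promoter 1 (chrX:7579426-7579566, plus strand, start site 7579676): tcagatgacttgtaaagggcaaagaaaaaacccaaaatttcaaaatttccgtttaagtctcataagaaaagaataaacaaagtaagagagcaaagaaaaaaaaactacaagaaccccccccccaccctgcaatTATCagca
Foxp3 promoter 2 (chrX:7580233-7580482, plus strand, start site 7580483): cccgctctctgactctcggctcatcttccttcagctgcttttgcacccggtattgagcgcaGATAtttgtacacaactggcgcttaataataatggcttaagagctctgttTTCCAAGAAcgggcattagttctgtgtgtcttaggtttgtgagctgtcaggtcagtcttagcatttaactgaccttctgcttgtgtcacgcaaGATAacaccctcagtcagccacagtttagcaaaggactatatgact
Promoter 1 held 2 GATA matches, 117 and 11 bases before the start, the second outside the printed stretch. Promoter 2 held 2 GATA matches, 189 and 46 bases before the start, and 1 TTCNNNGAA match at 139 bases. Among 32851 promoters in the table, 53.6% held GATA, 7.02% held TTCNNNGAA and 56.2% held GGGAA in a window of this length. Neither Foxp3 window held GGGAA. The table also held 2 promoters of Ikzf1, of which 1 had 2 GGGAA matches, 41 and 21 bases before the start, and the other had none of the 3 motifs. These matches describe letters only and say nothing of binding in these cells.

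Foxp3 (ENSMUSG00000039521, chrX:7573644-7595245, GRCm38) was present at a low level with PBS supernatant and close to the detection floor with IL-3 supernatant. It had 87.3, 137 and 168 expected counts in PBS replicates 1, 2 and 3. It had 5.13, 4.24 and 1.07 expected counts in IL-3 replicates 1, 2 and 3. Every PBS library was above every IL-3 library, and PBS replicate 1 was the lowest of its group. The CPM were 4.86, 7.62 and 9.56 with PBS supernatant and 0.264, 0.191 and 0.0545 with IL-3 supernatant, so that IL-3 replicate 3 lay under the level of 3 counts. The group means were 7.34 ± 2.36 and 0.170 ± 0.107 CPM (SD, n = 3 each), and the fitted log2 difference was −5.43 (SE 0.42). Summed over the libraries, 392 counts stood against 10, a depth-adjusted ratio of 44.8 with a 95% exact binomial interval of 24.1 to 94.2 that covers counting error only. Foxp3 passed the filter on low values through the PBS libraries alone, all 3 of which were above 0.526 CPM. None of the IL-3 libraries was, so at this IL-3 level Foxp3 could be tested only if it was higher with PBS supernatant. In bulk RNA, fewer Foxp3-expressing cells and less Foxp3 RNA per cell cannot be told apart.

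Cd4 and the Foxp3 level can be set side by side, since regulatory T cells of the CD4 lineage are the usual source of Foxp3 RNA in lymphoid tissue. Cd4 had 8, 15 and 14 counts with PBS supernatant and 0, 11 and 8 with IL-3 supernatant, and it was too low to be tested. Zbtb7b, which encodes the CD4 lineage factor ThPOK, was at 8.24, 5.98 and 4.85 CPM in the PBS group and 19.4, 16.9 and 17.7 CPM in the IL-3 group. Zbtb7b rose by 1.5 on the log2 scale (SE 0.16, edgeR quasi-likelihood test with Benjamini-Hochberg adjustment, adjusted p = 2.7e-06), with no overlap of the groups. The 3 CD4 lineage markers, with Cd40lg the third, summed to 6.44 to 9.29 CPM in the PBS group and 17.9 to 19.8 CPM in the IL-3 group. Zbtb7b made up most of that sum. Cd40lg went the other way without passing the test, with 0.612, 1.33 and 0.798 CPM in the PBS libraries and 0.360, 0.540 and 0.255 CPM in the IL-3 libraries (log2 difference −1.22). The mean of Cd4 was also lower with IL-3 supernatant, at 0.301 against 0.692 CPM, with overlapping groups. The 6 B cell markers summed to 292 to 324 CPM in the PBS group and 114 to 135 CPM in the IL-3 group. Ighm made up nearly all of that sum and fell by 1.39 on the log2 scale. Ebf1 went the other way, with a rise of 3.51 from a level near the floor. It had 5, 6 and 11 counts in the PBS libraries and 116, 98 and 76 in the IL-3 libraries. Over the alternative fits that rise ranged from 1.09 to 3.93. Cd79b had 40, 53 and 50 counts in the PBS libraries and 47, 61 and 49 in the IL-3 libraries and did not pass the test (log2 difference −0.06), and Cd79a, Ms4a1 and Pax5 had 0 to 8 counts per library. The part of CD4 lineage or B lineage cells in the Foxp3 values was not tested.

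The isoform table of PBS replicate 2 listed 4 of the 10 annotated Foxp3 isoforms. Foxp3-203, whose start lies 7 bases upstream of promoter 1's start, at 7579669, carried 95.1% of the Foxp3 TPM (a level scaled for transcript length and library total), and Foxp3-204, which starts at 7579676, carried 4.94%. Foxp3-202, which starts at promoter 2, was estimated at about 0. Isoforms were available for this single library, so no comparison between groups was made. Exons of the listed Foxp3 isoforms overlap Ccdc22 on the opposite strand over 590 bases, Gm36995 over 373 bases, and the noncoding gene Flicr over 274 bases. The exons of all 10 annotated Foxp3 isoforms together cover 4577 bases. The strand setting of the counting was not given in the sources used here, and the library kit does not mark strand, so reads in these stretches cannot be assigned by strand. Summed expected counts were 1096 and 1396 for Ccdc22, 170 and 177 for Gm36995, and 23.0 and 21 for Flicr with PBS and IL-3 supernatant, against 392 and 10 for Foxp3.

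Lrrc32 (ENSMUSG00000090958, chr7:98489283-98502181), which encodes the latent TGF-beta receptor GARP, was lower with IL-3 supernatant. It was at 68.6, 65.9 and 64.9 CPM in the PBS group and at 24.1, 23.1 and 22.9 CPM in the IL-3 group. The groups were far apart and each was tight, with means of 66.5 ± 1.87 and 23.4 ± 0.645 CPM (SD, n = 3 each). The log2 difference was −1.51 (SE 0.08), a level 2.84-fold lower. Lrrc32 had 448 to 1232 counts per library, so its precision is far better than that of Foxp3.

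Ikzf1 (ENSMUSG00000018654, chr11:11685003-11772926), the founding Ikaros gene, was at 446, 465 and 478 CPM in the PBS group and 332, 342 and 342 CPM in the IL-3 group. The groups did not overlap, with means of 463 ± 16.1 and 339 ± 5.8 CPM (SD, n = 3 each), a log2 difference of −0.45 (SE 0.05) and a level 1.37-fold lower. Ikzf3 (ENSMUSG00000018168, chr11:98464902-98546031), which encodes Aiolos, was at 107, 122 and 120 CPM in the PBS group and 79.6, 80.7 and 79.1 CPM in the IL-3 group. The IL-3 libraries were nearly equal and all lay below PBS replicate 1, the lowest of its group. The means were 116 ± 8.27 and 79.8 ± 0.844 CPM (SD, n = 3 each), a log2 difference of −0.54 (SE 0.06) and a level 1.46-fold lower.

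Ikzf4 (ENSMUSG00000002578, chr10:128630843-128645991), which encodes Eos, was the one gene of the 6 with higher values in the IL-3 group. It was at 35.6, 31.4 and 29.4 CPM in the PBS group and 47.0, 40.6 and 40.7 CPM in the IL-3 group. Every IL-3 library was above every PBS library, and replicate 1 was the highest of each group. The means were 32.1 ± 3.13 and 42.8 ± 3.63 CPM (SD, n = 3 each), a log2 difference of 0.41 (SE 0.09) and a level 1.33-fold higher. In 3 limma fits of log2 TPM, Ikzf4 kept this direction and did not pass the threshold, with log2 differences of 0.26 and 0.27 from 5 libraries and 0.52 from 6. Ikzf2 (ENSMUSG00000025997, chr1:69531214-69687245), which encodes Helios, was at 6.12, 6.26 and 5.87 CPM in the PBS group and 5.25, 6.03 and 5.05 CPM in the IL-3 group. Its groups overlapped, with means of 6.09 ± 0.197 and 5.45 ± 0.518 CPM (SD, n = 3 each) and a log2 difference of −0.16 (SE 0.17). Ikzf2 rested on 99 to 134 counts per library, so a small difference was not detectable at this depth.

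**Figure D1:**
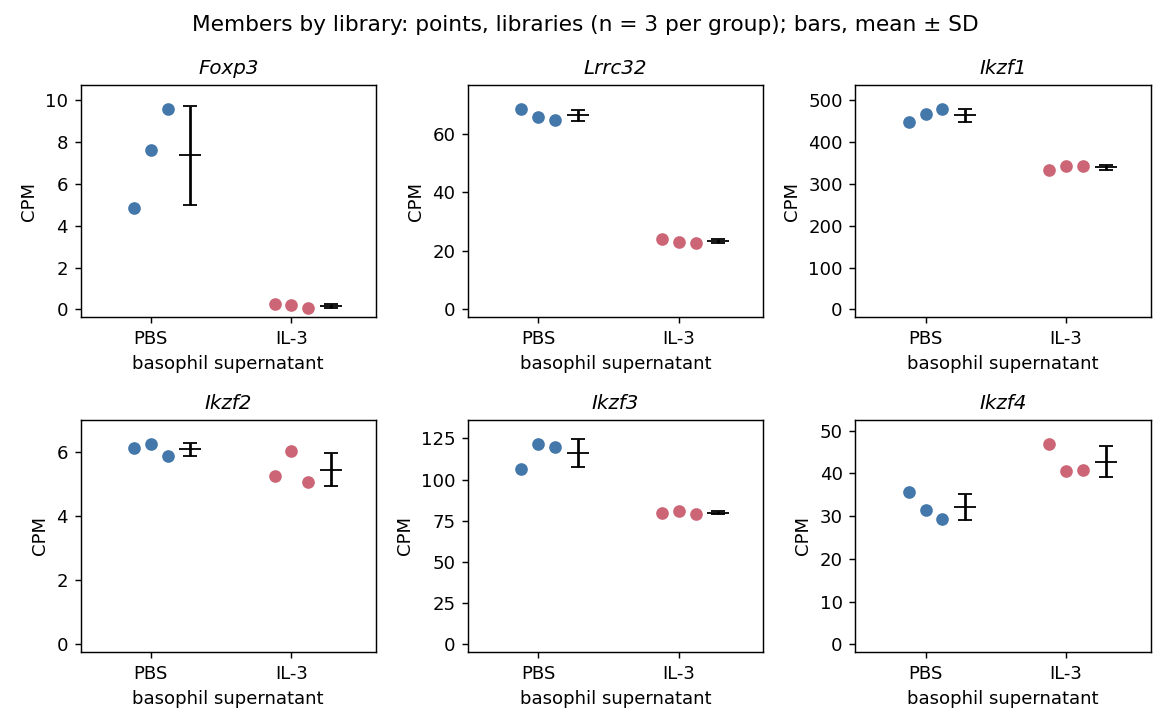
CPM of each of the 6 genes, 1 panel per gene with its own vertical axis from about 0. Points are the 3 PBS and 3 IL-3 libraries and bars the mean with SD; the groups are separate in every panel except that of Ikzf2, with the IL-3 libraries below for Foxp3, Lrrc32, Ikzf1 and Ikzf3 and above for Ikzf4.

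Across the 6 genes, 4 were called lower and 1 higher at an adjusted p below 0.05, where 30.9% of the 12407 tested genes were called, 16.1% lower and 14.8% higher. The CPM of the groups did not overlap for 5 of the 6 genes, 4 lower and 1 higher, against 43.6% of all tested genes, 22.6% lower and 21% higher. The genes were chosen with this difference known, so nothing is read from these counts.

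Levels between genes can be compared only per transcript length, so TPM were used for the order of the genes. Per-gene TPM tables covered PBS replicates 1 and 3 and IL-3 replicates 1 to 3. With PBS supernatant the order from the top was Ikzf1, Ikzf3, Lrrc32, Ikzf4, Foxp3 and Ikzf2. With IL-3 supernatant it was Ikzf1, Ikzf3, Ikzf4, Lrrc32, Ikzf2 and Foxp3, so Lrrc32 moved below Ikzf4 and Foxp3 moved below Ikzf2. The ranges of neighbours in these orders did not overlap in either group, with only 2 PBS libraries behind that. Ikzf1 was at 198 and 223 TPM with PBS supernatant and 152, 148 and 156 TPM with IL-3 supernatant. Ikzf3 was at 65.7 and 73.5 TPM, then 50.5, 52.6 and 49.8 TPM. Ikzf4 was at 16.6 and 17.4 TPM, then 21.4, 20.3 and 20.1 TPM. Both lower genes and the higher one thus kept in TPM the direction they had in CPM. Lrrc32 was at 35.5 and 33.2 TPM, then 12.3, 11.8 and 11.8 TPM. Foxp3 was at 2.56 and 4.97 TPM, then 0.138, 0.104 and 0.0301 TPM. Ikzf2 was at 1.48 and 1.40 TPM, then 1.495, 1.27 and 1.08 TPM, with IL-3 replicate 1 above both PBS libraries.

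Ikzf5 encodes Pegasus, the remaining family member, and was not among the chosen genes. It was at 43.2, 42.7 and 40.2 CPM in the PBS group and 37.0, 43.4 and 37.6 CPM in the IL-3 group, with overlapping groups (log2 difference −0.10, SE 0.08, edgeR quasi-likelihood test with Benjamini-Hochberg adjustment, adjusted p = 0.44). Summed over Ikzf1 to Ikzf5, the family stood at 305 and 335 TPM with PBS supernatant and at 244, 241 and 246 TPM with IL-3 supernatant. Ikzf1 supplied 64.9% and 66.6% of that sum in the PBS libraries and 62.2%, 61.1% and 63.7% in the IL-3 libraries. Ikzf4 supplied 5.46% and 5.20% in the PBS libraries and 8.78%, 8.40% and 8.20% in the IL-3 libraries. The ratio of Ikzf1 to Ikzf4 was 11.9 and 12.8 in the PBS libraries and 7.08, 7.28 and 7.77 in the IL-3 libraries, with no overlap. The ratio of Ikzf1 to Ikzf3 was 3.01 and 3.03, then 3.00, 2.80 and 3.14, so these genes were lower in nearly the same proportion.

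**Figure D2:**
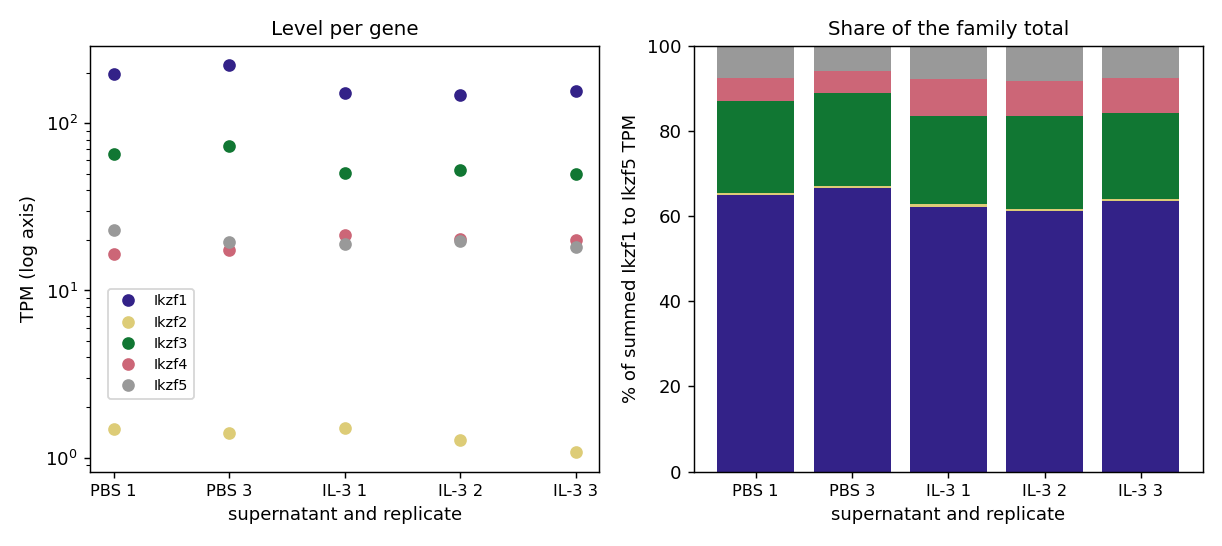
Left, TPM of Ikzf1 to Ikzf5 on a log axis in the 5 libraries with a per-gene TPM table. Right, the share of each Ikaros family gene in the summed Ikzf1 to Ikzf5 TPM of a library, in percent; the Ikzf4 share is 5.20% to 5.46% in the PBS libraries and 8.20% to 8.78% in the IL-3 libraries.

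In PBS replicate 2, the one library with an isoform table, all 6 annotated Ikzf1 isoforms were listed and Ikzf1-204 (54.1%) and Ikzf1-203 (29.5%) led. Ikzf3-201 held 83.5% of the Ikzf3 TPM. Ikzf2 was divided among Ikzf2-202 (48.0%), Ikzf2-207 (33.6%) and Ikzf2-201 (18.4%). Lrrc32 and Ikzf4 were each represented by 1 listed isoform, of 3 and 8 annotated. Summing the isoforms of this library gave 3.30 TPM for Ikzf2 and 9.46 TPM for Ikzf4, which stand off the per-gene tables of the other PBS libraries while their counts do not, so these sums were not joined to the levels above.

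The genes with the most similar profile were found among 9288 named genes by the root mean square difference of mean-centred log2 CPM over the 6 libraries, which mostly reflects the group difference. Nearest to Foxp3 were Drc1 (0.416), Ifi206 (0.476) and St6gal1 (0.540), far looser matches than for the other genes. Nearest to Lrrc32 were Ifngr1 (0.0534), which encodes an interferon-gamma receptor chain, Klrk1 (0.0535), which encodes the activating receptor NKG2D, and Tox (0.0825), a nuclear factor of T cell development and exhaustion. Ikzf1 was followed most closely by Hmgb2 (0.0203), Incenp (0.0223) and Gimap3 (0.0269). Ikzf3 was nearest to Map4k2, Rnf145 and Zdhhc4 (0.0386 to 0.0422), Ikzf4 to Wdr59, Lrrfip2 and Zswim4 (0.0403 to 0.0468), and Ikzf2 to Ift27, Rmnd5a and Ap4e1 (0.0340 to 0.0361).

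**Figure D3:**
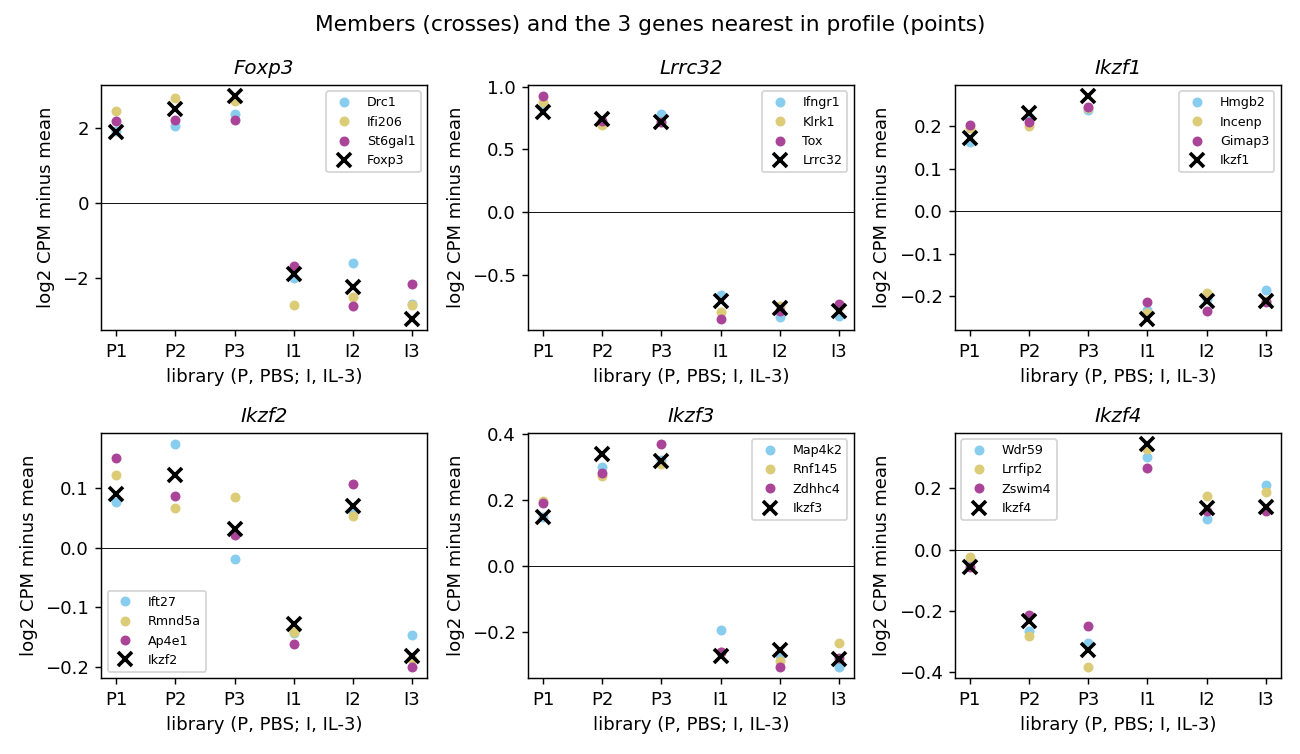
Log2 CPM minus its mean over the 6 libraries for each of the 6 genes (crosses) and its 3 nearest genes (points), 1 panel per gene with its own axis; P1 to P3 are PBS and I1 to I3 are IL-3 libraries. The Lrrc32 and Ikzf1 panels show near-identical steps between the groups, and the Foxp3 panel shows the IL-3 libraries spread near the floor.

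Other genes of the regulatory T cell program did not move as one group. Of 28 signature genes, 27 were tested, 12 rose and 10 fell, with a median log2 difference of 0.16 against −0.00 over all tested genes. That is 81.5% called, where 30.9% of all tested genes were called, 14.8% higher and 16.1% lower. This list and those below were chosen with earlier results of these data known, so nothing is read from their shares. Klrg1, with 0 counts, was not tested. Penk, which encodes an enkephalin precursor, rose from 7.53 ± 0.530 to 112 ± 10.8 CPM (SD, n = 3 each), and Ccr8, a chemokine receptor of skin and tumour regulatory T cells, rose from 1.33 ± 0.449 to 41.2 ± 2.42 CPM. Tnfrsf4, which encodes the costimulatory receptor OX40, rose by 1.47 on the log2 scale, and Il2ra, the high-affinity IL-2 receptor chain, rose by 0.34. Nt5e, which encodes the adenosine-producing enzyme CD73, fell from 30.9 ± 2.60 to 4.09 ± 0.840 CPM. Icos, a costimulatory receptor, fell by 1.05 and Socs2, a feedback inhibitor of cytokine signalling, fell by 1.38. Ctla4, the inhibitory receptor that FOXP3 is known to induce, was named after its values were seen and stood at 278 ± 41.6 and 271 ± 15.9 CPM (log2 difference −0.04, edgeR with Benjamini-Hochberg adjustment, adjusted p = 0.82).

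Factors known to bind the Foxp3 promoter or enhancers counted 10 higher and 7 lower of 24, with a median of 0.12 (70.8% called, against 30.9% of all tested genes). Gata3, the type 2 lineage factor, was at 14.2, 12.7 and 11.2 CPM in the PBS group and 114, 105 and 98.7 CPM in the IL-3 group. It rose by 3.06 on the log2 scale (SE 0.09, edgeR with Benjamini-Hochberg adjustment, adjusted p = 3.0e-13). Stat5a and Stat5b, which carry the IL-2 signal to the Foxp3 locus, rose by 1.25 and 0.74. Satb1, a chromatin organiser, rose from 252 ± 13.4 to 803 ± 12.9 CPM, Batf rose by 1.08, and Runx3, a CD8 lineage factor, rose by 0.29. Nfatc1, a calcium-activated factor, fell by 0.67. Foxp1, an abundant forkhead relative, was at 241 ± 8.29 and 234 ± 10.0 CPM (log2 difference −0.04, SE 0.05, edgeR adjusted p = 0.59). Another relative, Foxp4, fell and is described at the end. The 7 lower genes of this list also included Smad3 (−0.69), Tcf7 (−0.56) and Ets1 (−0.47), against 10 higher. A link of any of these factors to the Foxp3 level was not tested.

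Regulators of FOXP3 chromatin and protein stability counted 1 higher and 7 lower of 16, with a median of −0.17 (50% called, against 30.9% of all tested genes). Mbd2, which binds methylated DNA, fell from 174 ± 2.49 to 109 ± 1.84 CPM. Tet1, a demethylation gene named after its values were seen, had the largest fitted difference of the list at a low level, 46, 57 and 106 counts in the PBS libraries and 41, 38 and 37 in the IL-3 libraries (log2 difference −1.04, SE 0.33, edgeR with Benjamini-Hochberg adjustment, adjusted p = 0.023). That call was lost without PBS replicate 3, without any 1 of the IL-3 libraries, at an adjusted p below 0.01, and in the limma fits of log2 TPM. The maintenance methylation genes Dnmt1 and Uhrf1 fell by 0.23 and 0.27, the Tet1 relative Tet2 fell by 0.23, the histone deacetylase gene Hdac7 fell by 0.27, and Ezh2, the histone methyltransferase of Polycomb, rose by 0.25. Tet2 did not pass the threshold in the limma fits of log2 TPM.

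Of 19 genes of GARP function and latent TGF-beta activation, 14 were tested, 8 rose and 2 fell, with a median of 0.21 (71.4% called, against 30.9% of all tested genes). Furin, the protease that cleaves the TGF-beta precursor, rose from 97.1 ± 6.14 to 326 ± 17.4 CPM (log2 difference 1.75, SE 0.06, edgeR with Benjamini-Hochberg adjustment, adjusted p = 2.3e-12). Itgav and Itgb1, integrin chains that can bind latent TGF-beta, rose by 0.45 and 0.33, and Skil, a SMAD inhibitor, rose by 0.43. Nrros, which encodes a relative of GARP that also holds latent TGF-beta, fell from 50.9 ± 4.26 to 37.1 ± 2.37 CPM, and Tgfbr2, the TGF-beta receptor chain, fell by 0.53. Tgfb1 itself was at 272 ± 4.52 CPM in the PBS group and 267 ± 17 CPM in the IL-3 group (log2 difference −0.03, SE 0.06, edgeR adjusted p = 0.74). Tgfb2, Itgb8, Itgb6, Ltbp1 and Thbs1 were too low to be tested. In the limma fits of log2 TPM from 5 libraries, 6 of these genes were called instead of 10.

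Ikaros family proteins recruit the NuRD, SIN3 and CtBP complexes. Of 16 genes of these complexes, 2 rose and 5 fell, with a median of −0.01 (43.8% called, against 30.9% of all tested genes). Chd3, which encodes a remodelling helicase of NuRD, fell from 231 ± 5.44 to 121 ± 4.63 CPM. Its relative Chd4 was at 1115 ± 13.9 and 1119 ± 8.85 CPM (log2 difference 0.01, SE 0.05, edgeR with Benjamini-Hochberg adjustment, adjusted p = 0.95). Hdac2 rose by 0.35, and Ctbp2 rose from 1.33 ± 0.301 to 4.92 ± 1.56 CPM. Ctbp1, Mbd3 and Sin3a fell by 0.22, 0.22 and 0.18. The Ctbp1 call was lost without PBS replicate 2 and in the 2 limma fits of log2 TPM from 5 libraries. The Mbd3 call was lost without PBS replicate 2 or 3 or IL-3 replicate 2 or 3, at an adjusted p below 0.01 and in all 3 limma fits of log2 TPM. The Sin3a call was lost in 11 of 18 alternatives, namely when any library except PBS replicate 1 was left out, with scaling by total counts alone, with the replicate number as a block, at an adjusted p below 0.01 and in all 3 limma fits of log2 TPM. The number of called genes was 3 without PBS replicate 2 and 4 without PBS replicate 3, IL-3 replicate 2 or IL-3 replicate 3, against 7 with all libraries.

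Ikaros and Aiolos are the proteins that the cereblon ubiquitin ligase degrades when thalidomide-type drugs are bound. Crbn, the substrate receptor, was at 35.0 ± 0.943 and 32.1 ± 3.54 CPM (log2 difference −0.12, SE 0.09, edgeR with Benjamini-Hochberg adjustment, adjusted p = 0.35). Of the 6 genes of this ligase and Ikzf5, only Ddb1 passed (16.7%, against 30.9% of all tested genes), with a rise of 0.18. That call was lost without IL-3 replicate 1 or IL-3 replicate 3, at an adjusted p below 0.01 and in the 2 limma fits of log2 TPM from 5 libraries. Without PBS replicate 1, Rbx1, the RING subunit, passed as well.

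Of 19 genes known as Ikaros family targets in lymphocytes, 14 were tested, 5 rose and 4 fell, with a median of −0.06 (64.3% called, against 30.9% of all tested genes). Ifng, the effector cytokine, rose from 876 ± 57.3 to 1701 ± 41.6 CPM, and Il2, which Ikaros and Aiolos are known to repress, rose from 5.59 ± 0.514 to 19.3 ± 6.24 CPM (log2 difference 1.78, SE 0.22, edgeR with Benjamini-Hochberg adjustment, adjusted p = 0.00019). Il4 had 1 count in the 3 PBS libraries and 242 in the 3 IL-3 libraries. The depth-adjusted ratio was 212, with a 95% exact binomial interval of 37.6 to 8397 that covers counting error only. Il4 passed the filter on low values through the IL-3 libraries alone, so nothing is read from its call or from this interval. Bcl2l1, a survival gene, rose by 0.49 and Tbx21, the T-bet gene, rose by 0.41. Cd8a, whose locus Ikaros is known to bind, fell from 850 ± 41.1 to 377 ± 15.5 CPM, and Cd8b1 fell by 0.42. Hes1, Notch3, Ptcra, Dntt and Rag1 were too low to be tested. The list held genes in both directions, as did the regulatory T cell list.

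**Figure D4:**
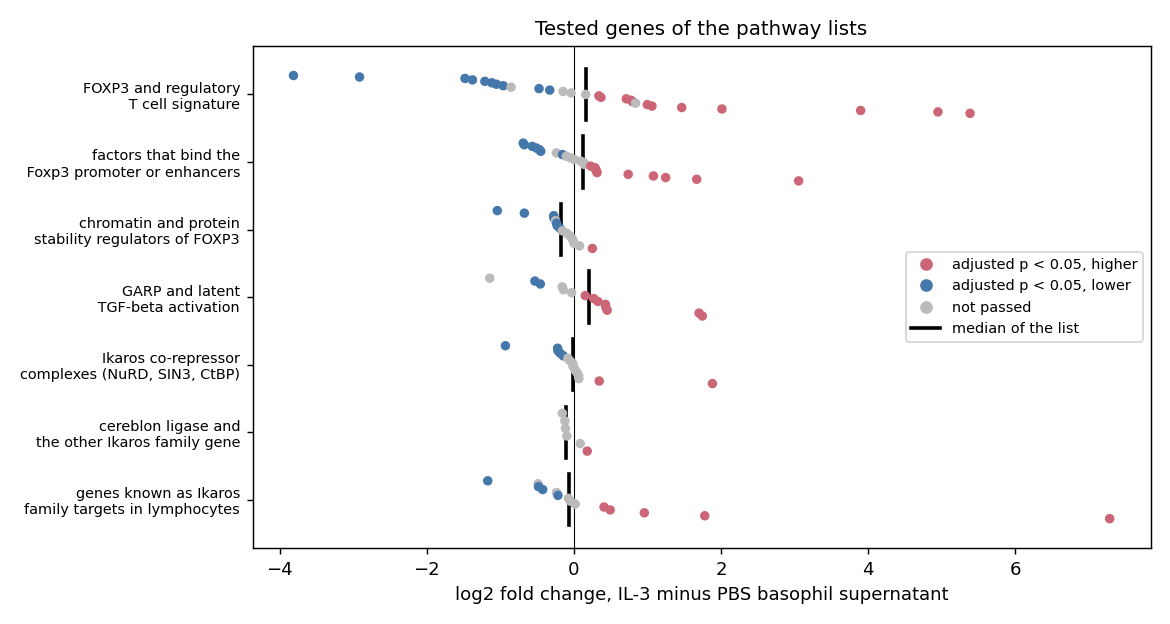
Log2 difference (IL-3 minus PBS supernatant) of every tested gene of the 7 pathway lists, 1 row per list. Each point is a gene, marked by whether it passed the edgeR test; the Ikaros target list reaches furthest to the right, at Il4, followed by the regulatory T cell list, and the values of genes near 0 counts in one group, such as Il4, depend on the prior count of the fit.

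The direction of all 6 genes held in each of the 17 alternative fits. Lrrc32 ranged from −1.53 to −1.41, Ikzf1 from −0.48 to −0.43 and Ikzf3 from −0.60 to −0.44 on the log2 scale. Ikzf4 ranged from 0.26 to 0.52 and Ikzf2 from −0.37 to −0.10. When 1 library was left out, Ikzf4 ranged from 0.34 to 0.49 and Ikzf2 from −0.23 to −0.11. The value of 0.52 for Ikzf4 came from the limma fit of log2 TPM that included the isoform sums of PBS replicate 2. Foxp3 ranged from −5.87 to −5.04 when 1 library was left out and was −2.08 on the log2(TPM + 1) scale, which compresses genes with low values.

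**Figure D5:**
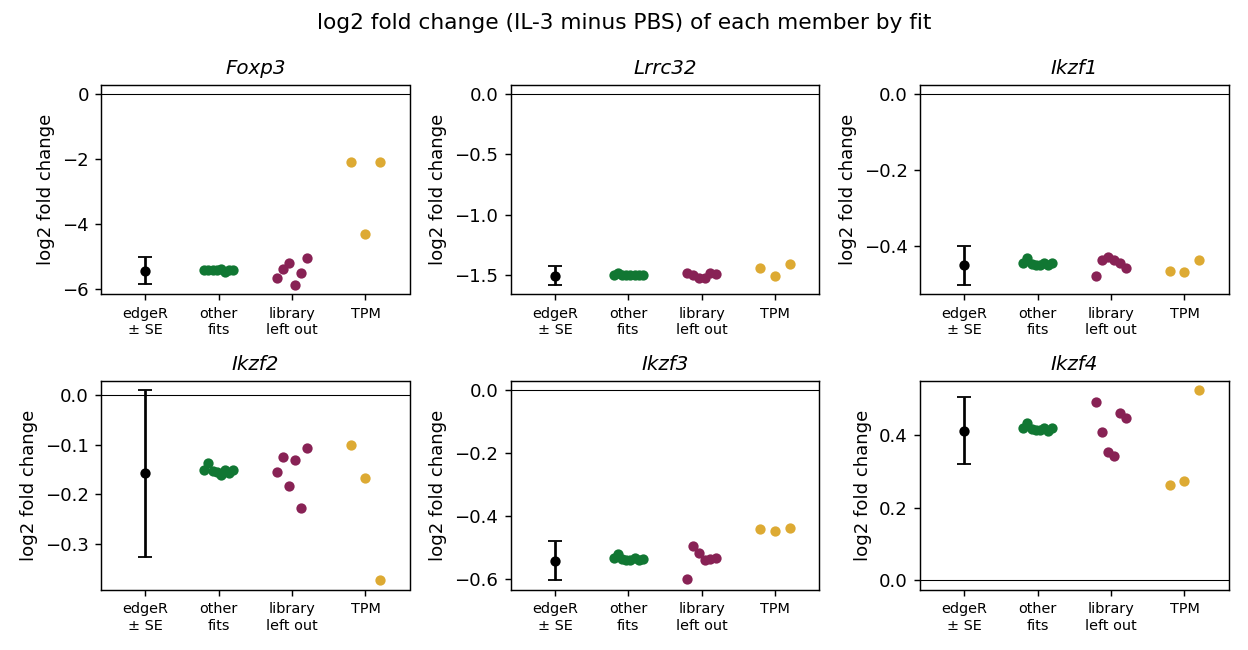
Log2 difference (IL-3 minus PBS supernatant) of each of the 6 genes in the edgeR fit with its SE, in the other fits, with 1 library left out, and from TPM, 1 panel per gene with its own axis. No value crosses 0 in any panel; the TPM values of Foxp3 lie closest to 0, at −2.08 with a pseudocount of 1.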

How the data were processed

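Poly(A) RNA of mouse T cells was made into 6 Illumina TruSeq v2 libraries, per the labels' protocols. The authors deposited expected counts per gene for 6 libraries, TPM per gene for 5, and TPM per isoform for PBS replicate 2. The submitters' processing notes name RSEM 1.2.12, Bowtie2 2.2.0, edgeR 3.20.9 and GRCm38, with no roles; the annotation and strand setting were not given there or in the labels. Of 46517 Ensembl identifiers, 46005 matched a symbol. Expected counts were rounded for tests (5108 to 5896 genes per library had fractions). Genes were filtered with filterByExpr (minimum count 10), TMM-scaled and tested with edgeR 4.0.16 quasi-likelihood, 3 against 3, with Benjamini-Hochberg adjustment over 12407 genes at 0.05. CPM use TMM-scaled totals. On simulated counts for these 12407 genes, the fit recovered 18%, 76%, 90% and 98% of 50 genes each changed 1.25-, 1.5-, 2- and 4-fold. The simulation gave all genes the same dispersion, with no gene-specific scatter, so these shares may not hold for the real libraries. Library pairs differed beyond sampling noise. The genes and lists were chosen with earlier results of these data known. Named list genes are the up to 6 with the smallest p per list plus 10 listed by symbol. Alternatives used DESeq2 1.42.0, limma 3.58.1, other scalings and filters, and log2(TPM + 1) or log2(TPM + 0.1). Sequences came from GENCODE vM21 and RefSeq (2 of 6 genes matched a promoter). Figures used matplotlib 3.10.9. One further B cell marker is not reported here.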

Additional observations from a re-analysis of the deposited data

How the results depend on the processing

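Called genes numbered 3835 with edgeR, 3077 to 4018 when 1 library was left out and 2610 to 4187 over all alternatives. Of the 6 genes, 5 were called in every fit of counts and 4 in the 3 fits of log2 TPM, which lost Ikzf4. With the replicate number as a block, 3410 genes were called (1634 higher, 1776 lower) and 5 of the 6 genes. Same-numbered libraries correlated at −0.148, 0.0517 and 0.255 in their deviations from the group mean, and not every library correlated best with its own number. Deviations from a mean of 3 libraries are tied to each other, so these values cannot settle whether the numbers pair the libraries. The co-repressor list had 7 called genes, 3 to 7 with 1 library left out, 4 at an adjusted p below 0.01, 3 on log2(TPM + 1) and on log2(TPM + 0.1), and 4 on log2(TPM + 1) with the isoform sums of PBS replicate 2 added after seeing the data. The cereblon list had 1, 0 to 2 with 1 library left out, and 0 at an adjusted p below 0.01 and in both TPM fits of 5 libraries. The GARP list had 10, and 6 in both of those fits. Counts in place of TPM put the Ikzf1 share of the family at 70.2% with PBS and 66.9% with IL-3 supernatant (65.8% and 62.3% by TPM). The cause of these shifts was not tested. Depth limits Foxp3, whose IL-3 group holds 10 counts, and Ikzf2.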

Other observations

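Foxp4, a forkhead relative of Foxp3 chosen after its values were seen, was at 107, 102 and 110 CPM with PBS supernatant and 83.0, 69.5 and 74.9 CPM with IL-3 supernatant. It fell by 0.49 on the log2 scale (SE 0.07, edgeR quasi-likelihood test with Benjamini-Hochberg adjustment, adjusted p = 3.0e-05), lower in 3 of 3 IL-3 libraries. Foxp2 had 0 counts in the 3 PBS libraries and 0, 1 and 1 in the IL-3 libraries, and was not tested.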
